A study of Mus musculus with 8 samples.

Results

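The mRNA decay machinery examined here is a set of 46 mouse genes that encode the CCR4-NOT deadenylase (11 genes), the PAN2-PAN3 deadenylase (2), decapping factors and 5′ exonucleases (7), the LSM ring (7), the RNA exosome (10) and nonsense-mediated decay factors (9). The genes were chosen by symbol from textbook complexes, and all 46 were among the 21812 symbols of the count table. All 46 also passed the filter on low counts, together with 14229 genes in all. Mouse embryonic stem cells were held in a medium that induces primitive endoderm, and total RNA was sequenced from 8 libraries. The groups were Mettl3 cKO (a conditional knockout of Mettl3), its control Mettl3 WT, Virma cKO (a conditional knockout of Virma) and its control Virma WT, with 2 libraries each. Every group was kept in the same medium. The labels do not give how or when the alleles were deleted, the number of clones, or whether the libraries of a group came from separate cultures.

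Messenger RNAs are mostly destroyed after their poly(A) tail has been shortened, first by PAN2-PAN3 and then by CCR4-NOT. The shortened RNA is bound by the LSM ring, its cap is removed by DCP2 with its helpers, and the body is eaten from the 5′ end by XRN1 or from the 3′ end by the exosome. Nonsense-mediated decay feeds RNAs with premature stop codons into the same enzymes. METTL3 is the catalytic subunit and VIRMA a scaffold of the complex that writes the RNA mark m6A, and readers of that mark can recruit CCR4-NOT to marked RNAs, which is why this machinery is of interest where the writer is removed.

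Library totals lay between 15568628 and 17306227 counts. Between the 2 Virma cKO libraries the counts differed by less than sampling noise (0.914 chi-square per degree of freedom), and the pair was counted as 1 sample with no SD. In libraries labelled Mettl3 cKO the Mettl3 gene had 35.35 and 33.87 CPM, against 35.72 and 35.19 CPM in those labelled Mettl3 WT. Virma stood at 70.77 and 73.76 CPM in the libraries labelled Virma cKO, against 93.3 and 88.72 CPM in those labelled Virma WT. Mettl3 had 34.09 and 33.54 CPM in Virma cKO, against 45.81 and 44.24 CPM in Virma WT. Virma had 108 and 104.6 CPM in Mettl3 cKO, against 96.66 and 103.9 CPM in Mettl3 WT. Gene-level counts cannot show a deleted exon, so directions are between libraries as labelled. Of 11 primitive endoderm markers 9 were lower in Mettl3 cKO and 11 in Virma cKO, with summed levels of 5455 and 5477 CPM in Mettl3 cKO, 8569 and 8595 CPM in Mettl3 WT, 1001 and 1015 CPM in Virma cKO, and 6962 and 6986 CPM in Virma WT. All 13 fibroblast markers were higher in both knockouts, with sums of 377.1 and 385.7 CPM in Mettl3 cKO, 188.1 and 194.3 CPM in Mettl3 WT, 1197 and 1188 CPM in Virma cKO, and 512.3 and 517.5 CPM in Virma WT. Of 9 pluripotency markers 3 were higher and 5 lower in Mettl3 cKO, and 1 higher and 6 lower in Virma cKO, with sums of 1916 and 1967 CPM in Mettl3 cKO, 2079 and 2096 CPM in Mettl3 WT, 1281 and 1298 CPM in Virma cKO, and 2121 and 2146 CPM in Virma WT. No marker of these lists was at 0 in any library. The part of these shifts in the results on decay genes was not tested, and in bulk RNA fewer cells of a type and less RNA per cell cannot be told apart. Levels are normalised CPM (counts relative to library size, scaled with TMM factors), and changes are log2 fold changes ± SE. A gene is called higher or lower at a Benjamini-Hochberg adjusted p below 0.05 in edgeR's quasi-likelihood test. The p-values rest on how far libraries of a group lie apart, which may be technical. Where libraries are said not to overlap, this describes 2 values against 2 and is not a test. For the Virma line, the 2 Virma cKO values come from the pair counted as 1 sample. The share of all genes without overlap was not counted. Values corrected for length and GC had the smooth trend of fold change with exon length and GC content over all genes taken out.

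In Mettl3 cKO against Mettl3 WT, 10 of the 46 genes were higher and 23 lower, where 55.1% of all genes tested were called. Their median log2 fold change was −0.13, against 0.01 over all genes tested. By direction, 27.1% of all genes were higher and 28% lower. In Virma cKO against Virma WT, 10 genes were higher and 24 lower, where 52.3% of all genes were called, 26.2% higher and 26.1% lower. Their median was −0.17, against 0.02 over all genes. With libraries scaled by total count instead of TMM factors, the Virma split turned round to 20 higher and 14 lower, and the median of all genes moved to 0.15. Summed over the 46 genes, levels were 4306 and 4304 CPM in Mettl3 cKO and 4690 and 4711 CPM in Mettl3 WT. The sums were 4064 and 4114 CPM in Virma cKO and 4544 and 4515 CPM in Virma WT. Both knockouts thus lay below their own controls in the TMM-scaled sum. All sums here and below are on that scale, and none was taken with scaling by total count. Cnot1 alone had means of 426 CPM in Mettl3 cKO and 695 CPM in Mettl3 WT. In the Virma line its means were 418 CPM in Virma cKO and 585 CPM in Virma WT.

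**Figure D1:**
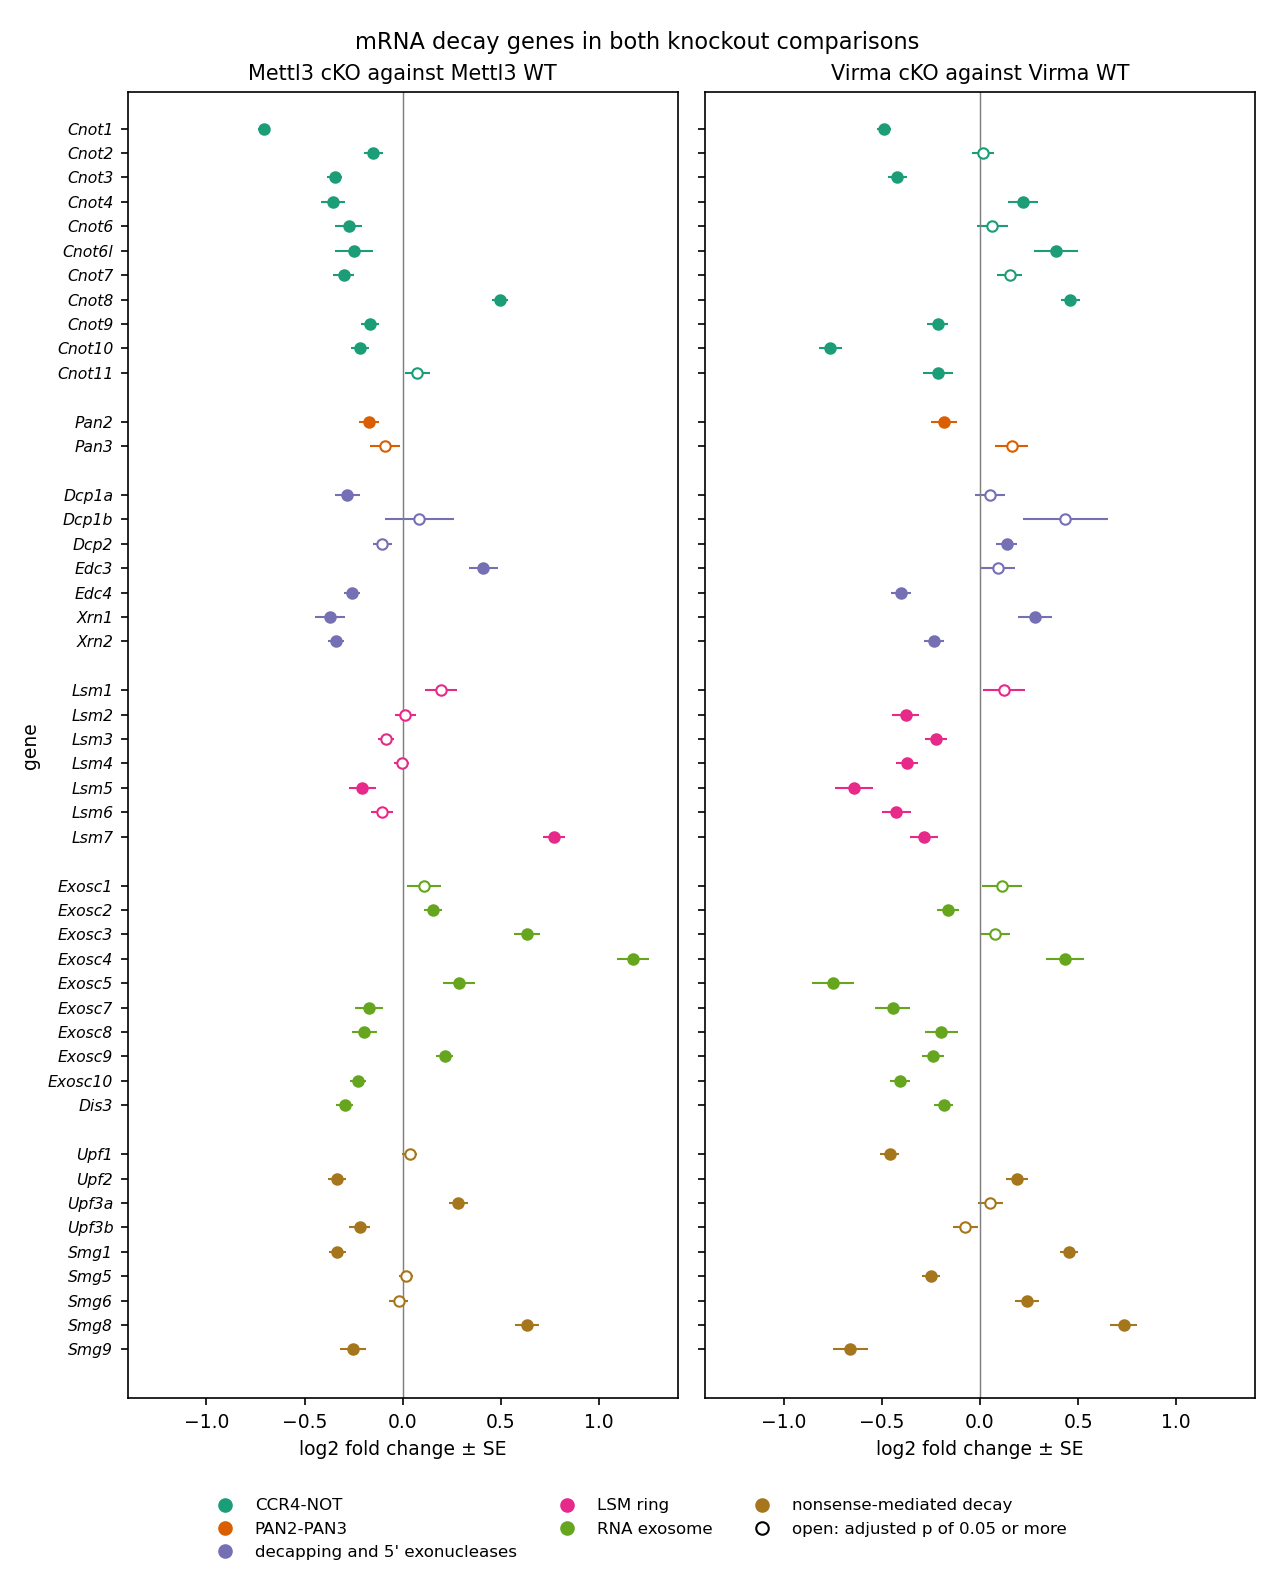
Log2 fold change ± SE (x axis) of the 46 decay genes, grouped by complex (y axis), in Mettl3 cKO against Mettl3 WT (left) and Virma cKO against Virma WT (right). Filled points have an adjusted p below 0.05. CCR4-NOT genes sit mostly left of 0 in the Mettl3 comparison (9 of 11 lower), and LSM genes in the Virma comparison (6 of 7 lower, or 4 of 7 with scaling by total count).

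The plot of fold changes by complex shows that the 6 groups did not move as blocks. Exosome genes of the Mettl3 comparison ran from −0.30 for Dis3 to 1.17 for Exosc4, and nonsense-mediated decay genes of the Virma comparison ran from −0.66 for Smg9 to 0.73 for Smg8.

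The mark m6A is written on A within a short consensus whose core is GGAC, and its frequent form GGACT, read on the sense strand, was searched in the coding transcript with the longest coding sequence of each gene (GENCODE M21, build GRCm38). It occurred in 39 of 46 decay genes (84.8%), against 12807 of 13920 coding genes tested (92%), and its median density was 0.813 per kb in decay genes and 1.06 per kb in all. The windows below are those nearest the stop codon in the 3 genes that were higher in both knockouts (Cnot8, Exosc4, Smg8), in 3 that were lower in both (Cnot1, Cnot10, Exosc10) and in Smg1, which went opposite ways. Each is written 5′ to 3′ with T for U, and the capitals mark GGACT.
Cnot8: gaggatgtGGACTgtgcccag
Exosc4: tcactgggGGACTgagtggca
Smg8: tgtcatcaGGACTagagctga
Cnot1: ctacgtagGGACTcaggctat
Cnot10: ctctgcccGGACTgtgatgct
Exosc10: tgctggagGGACTcctggggc
Smg1: tcagaaatGGACTgaaaaaat
In Exosc4 and Exosc10 the motif lies beside the end of the coding sequence, with its A at −4 and 11 bases from the last base of the stop codon (negative is upstream). In Cnot8 it lies in the coding sequence at −55, and in Smg1 in the 3′ UTR at 542. Smg1 holds 14 copies in its transcript, Cnot1 11, Exosc4 5, Exosc10 5, Smg8 4, Cnot10 3 and Cnot8 1. Cnot3, which like Cnot1, Cnot10 and Exosc10 kept its lower calls in both lines under every alternative tried, holds 0 copies. It therefore has no window here. Decay genes lower in Mettl3 cKO had a median of 0.769 copies per kb and those higher had 1.12, against 0.942 and 1.2 over all genes with the same calls. For Virma cKO the medians were closer, 0.816 in lower and 0.836 in higher decay genes, against 1.01 and 1.1 over all genes. No methylation was measured in these files, and a motif match is not a marked site.

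CCR4-NOT was the group with the most lower genes in Mettl3 cKO. Its 11 genes split into 9 lower, 1 higher and 1 not called (median −0.25). Cnot1, the scaffold on which the complex is built, had 426.4 and 425 CPM in Mettl3 cKO, against 694.9 and 695.8 CPM in Mettl3 WT. Both knockout libraries lay far below both controls, with a change of −0.71 ± 0.03 on the log2 scale (edgeR, Benjamini-Hochberg adjusted p = 7.29e-16). Cnot1 was also lower in Virma cKO, with 413.4 and 422.7 CPM against 593.3 and 577.1 CPM in Virma WT (−0.49 ± 0.03). Cnot1 had the highest CPM of the 46 genes in the mean over the groups, 531 CPM. Per kb of exon it ranked only 11 (30.9 CPM per kb), where exon length joins all annotated exons of a gene.

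Cnot8, one of the paired CAF1-type deadenylases that remove the poly(A) tail, went the other way. It had 172.7 and 176.6 CPM in Mettl3 cKO, against 121.7 and 125.5 CPM in Mettl3 WT, and 163.1 and 165.6 CPM in Virma cKO, against 122.9 and 115.5 CPM in Virma WT. The knockout libraries lay above their controls in both lines, by 0.50 ± 0.04 and 0.46 ± 0.05. Its paralog Cnot7 had 65.41 and 64.6 CPM in Mettl3 cKO, against 82.34 and 77.63 CPM in Mettl3 WT (−0.30 ± 0.05), and 72.58 and 74.37 CPM in Virma cKO, against 66.99 and 65.17 CPM in Virma WT (0.15 ± 0.07, not called, edgeR Benjamini-Hochberg adjusted p = 0.0553). Cnot7 was thus lower in Mettl3 cKO without overlap while Cnot8 was higher, and its fall was reduced to −0.03 once corrected for length and GC and to −0.02 against the Virma WT libraries. Its Virma value passed the test without replicate 1 or 2 of Mettl3 WT (0.15 each) and without replicate 1 of Virma cKO (0.17).

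Cnot10, a subunit of a peripheral module with Cnot11, had the deepest fall of the group in Virma cKO. It had 64.74 and 64.58 CPM there, against 108.9 and 110.2 CPM in Virma WT, a change of −0.76 ± 0.06 (edgeR, Benjamini-Hochberg adjusted p = 1.29e-10). In Mettl3 cKO it had 91.02 and 93.09 CPM, against 108.8 and 105.3 CPM in Mettl3 WT (−0.22 ± 0.05). Neither comparison showed overlap, and the fall was deeper in the Virma line, with a difference of effects of −0.54 ± 0.07 (edgeR, Benjamini-Hochberg adjusted p = 2.77e-06).

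The CCR4-type deadenylases Cnot6 and Cnot6l are low in these cells. Cnot6 had 39.38 and 38.89 CPM in Mettl3 cKO and 44.89 and 49.86 CPM in Mettl3 WT (−0.28 ± 0.07), and 58.65 and 62.76 CPM in Virma cKO and 60.43 and 55.57 CPM in Virma WT (0.06 ± 0.08, not called). Cnot6l had 15.15 and 15.24 CPM in Mettl3 cKO and 17.56 and 18.49 CPM in Mettl3 WT (−0.25 ± 0.10), and 23.53 and 23.69 CPM in Virma cKO and 17.54 and 18.48 CPM in Virma WT (0.39 ± 0.11). The Cnot6l libraries did not overlap in either line and moved in opposite directions. Its Mettl3 call held in 8 of 20 alternatives, turning to 0.10 once corrected for length and GC, and it was lost without replicate 1 or 2 of Mettl3 cKO (−0.24 and −0.25), replicate 2 of Mettl3 WT (−0.21) and replicate 1 or 2 of Virma WT (−0.25 each). Its Virma call was lost without replicate 1 of Virma WT (0.35), with DESeq2 (0.38) and once so corrected (0.24).

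Among the other genes of the complex, Cnot3, a core subunit beside Cnot2, was lower in both knockouts (−0.35 ± 0.04 and −0.42 ± 0.05), as was Cnot9, which binds adaptor proteins (−0.17 ± 0.05 and −0.22 ± 0.05). Cnot4, a ubiquitin ligase linked to the complex, was lower in Mettl3 cKO (−0.35 ± 0.06) and higher in Virma cKO (0.22 ± 0.08). Cnot2 was lower in Mettl3 cKO by a small margin (−0.15 ± 0.05) and stood at 0.02 ± 0.06 in Virma cKO. Cnot11 stood at 0.07 ± 0.06 in Mettl3 cKO and was lower in Virma cKO (−0.21 ± 0.08). Once corrected for length and GC, 4 genes of the complex instead of 9 were lower in Mettl3 cKO, with a median of −0.06: Cnot2 (−0.06), Cnot4 (−0.10), Cnot6 (−0.03), Cnot6l and Cnot7 lost the call, while Cnot1, Cnot3, Cnot9 and Cnot10 passed. In Virma cKO the call of Cnot4 was lost once so corrected (0.09) and with DESeq2 (0.21), and those of Cnot9 (−0.09) and Cnot11 (−0.08) with scaling by total count. DESeq2 also ended the Virma call of Cnot11 (−0.22) and the Mettl3 call of Cnot2 (−0.16). Single libraries also decided calls of Cnot2 (−0.12 without replicate 2 of Mettl3 cKO, −0.10 without replicate 2 of Mettl3 WT), Cnot9 (−0.13 without replicate 2 of Mettl3 cKO), Cnot4 in Virma cKO (0.18 without replicate 2 of Virma WT) and Cnot11 in Virma cKO (−0.15 without replicate 1 of Virma cKO, −0.21 and −0.22 without replicate 1 or 2 of Virma WT).

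The PAN2-PAN3 pair changed little. Pan2, the nuclease, had 70.22 and 68.83 CPM in Mettl3 cKO, against 77.73 and 78.94 CPM in Mettl3 WT, and 62.02 and 60.33 CPM in Virma cKO, against 68.96 and 69.52 CPM in Virma WT. The knockout libraries lay below their controls in both lines, by −0.17 ± 0.05 and −0.18 ± 0.07. The Mettl3 call was lost without replicate 2 of Mettl3 cKO (−0.16) and against the Virma WT libraries (0.005), and the Virma call without replicate 1 or 2 of Virma WT (−0.19 and −0.18), with DESeq2 (−0.19) and with scaling by total count (−0.05). Pan3, which ties the nuclease to poly(A) binding protein, was not called in either line (−0.09 ± 0.08 and 0.16 ± 0.09). In Mettl3 cKO it passed without replicate 2 of Mettl3 WT (−0.20), and in Virma cKO without replicate 1 or 2 of Mettl3 WT (0.16 each).

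Decapping factors and 5′ exonucleases fell in 4 of 7 genes and rose in 1 in Mettl3 cKO, with a median of −0.26. Virma cKO had 2 lower and 2 higher, with a median of 0.09, or 1 lower and 5 higher with scaling by total count. Without replicate 2 of Virma WT 0 were higher there, and 1 was higher without replicate 1 or 2 of Mettl3 cKO, replicate 2 of Virma cKO or replicate 1 of Virma WT. Edc3, an enhancer of decapping, had 43.41 and 47.3 CPM in Mettl3 cKO, against 32.06 and 36.15 CPM in Mettl3 WT, a rise of 0.41 ± 0.07 with no overlap. In Virma cKO it had 48.15 and 47.39 CPM, against 45.81 and 43.64 CPM in Virma WT (0.09 ± 0.09, not called). Against the Virma WT libraries the rise in Mettl3 cKO was reduced to 0.02. Edc4, a large scaffold of the decapping complex, had 131.1 and 135.4 CPM in Mettl3 cKO, against 156.6 and 161.8 CPM in Mettl3 WT (−0.26 ± 0.04), and 101.8 and 101 CPM in Virma cKO, against 133.9 and 133.7 CPM in Virma WT (−0.40 ± 0.05). It was lower without overlap in both lines, although against the Virma WT libraries the Mettl3 value was −0.01.

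Xrn1, the cytoplasmic 5′ to 3′ exonuclease, moved in opposite directions. It had 33.79 and 32.06 CPM in Mettl3 cKO, against 42.61 and 42.43 CPM in Mettl3 WT (−0.37 ± 0.08), and 50.2 and 50.73 CPM in Virma cKO, against 44.62 and 38.4 CPM in Virma WT (0.28 ± 0.09). The libraries did not overlap in either line, and the effects differed by 0.65 ± 0.12 (edgeR, Benjamini-Hochberg adjusted p = 8.24e-05). Once corrected for length and GC, none of the 3 calls remained (−0.03, 0.07 and 0.10), and leaving out replicate 2 of Virma WT (0.17) ended the Virma call, as did DESeq2 (0.27). Xrn2, the nuclear relative, had 130.3 and 128.7 CPM in Mettl3 cKO, against 168.5 and 159 CPM in Mettl3 WT, and 154.8 and 155.7 CPM in Virma cKO, against 187.8 and 176.5 CPM in Virma WT. It was lower without overlap in both, by −0.34 ± 0.04 and −0.23 ± 0.05, and the Virma call was lost with scaling by total count (−0.11).

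Dcp2, the decapping enzyme, was not called in Mettl3 cKO (−0.10 ± 0.05) and was slightly higher in Virma cKO (0.14 ± 0.05), a call that held in 9 of 19 alternatives. It was lost, for example, without replicate 1 or 2 of Mettl3 cKO (0.13 each), replicate 2 of Virma cKO (0.12), and replicate 1 or 2 of Virma WT (0.16 and 0.11). In Mettl3 cKO it passed without replicate 1 of Mettl3 WT (−0.13). Its activator Dcp1a had 42.98 and 46.57 CPM in Mettl3 cKO, against 55.31 and 53.51 CPM in Mettl3 WT (−0.28 ± 0.06), and 56.23 and 57.48 CPM in Virma cKO, against 56.73 and 52.77 CPM in Virma WT (0.05 ± 0.08). Only the Mettl3 line was free of overlap. Dcp1b, the rarer form, had the lowest mean level of the set, 7.2 CPM, with 8.837 and 6.291 CPM in Mettl3 cKO, 7.97 and 6.284 CPM in Mettl3 WT, 8.266 and 7.959 CPM in Virma cKO, and 5.429 and 6.558 CPM in Virma WT. It was not called in either line (0.09 ± 0.17 and 0.43 ± 0.22), and its replicates spread up to 0.49 on the log2 scale. Its Virma value passed without replicate 1 or 2 of Mettl3 WT (0.43 each).

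**Figure D2:**
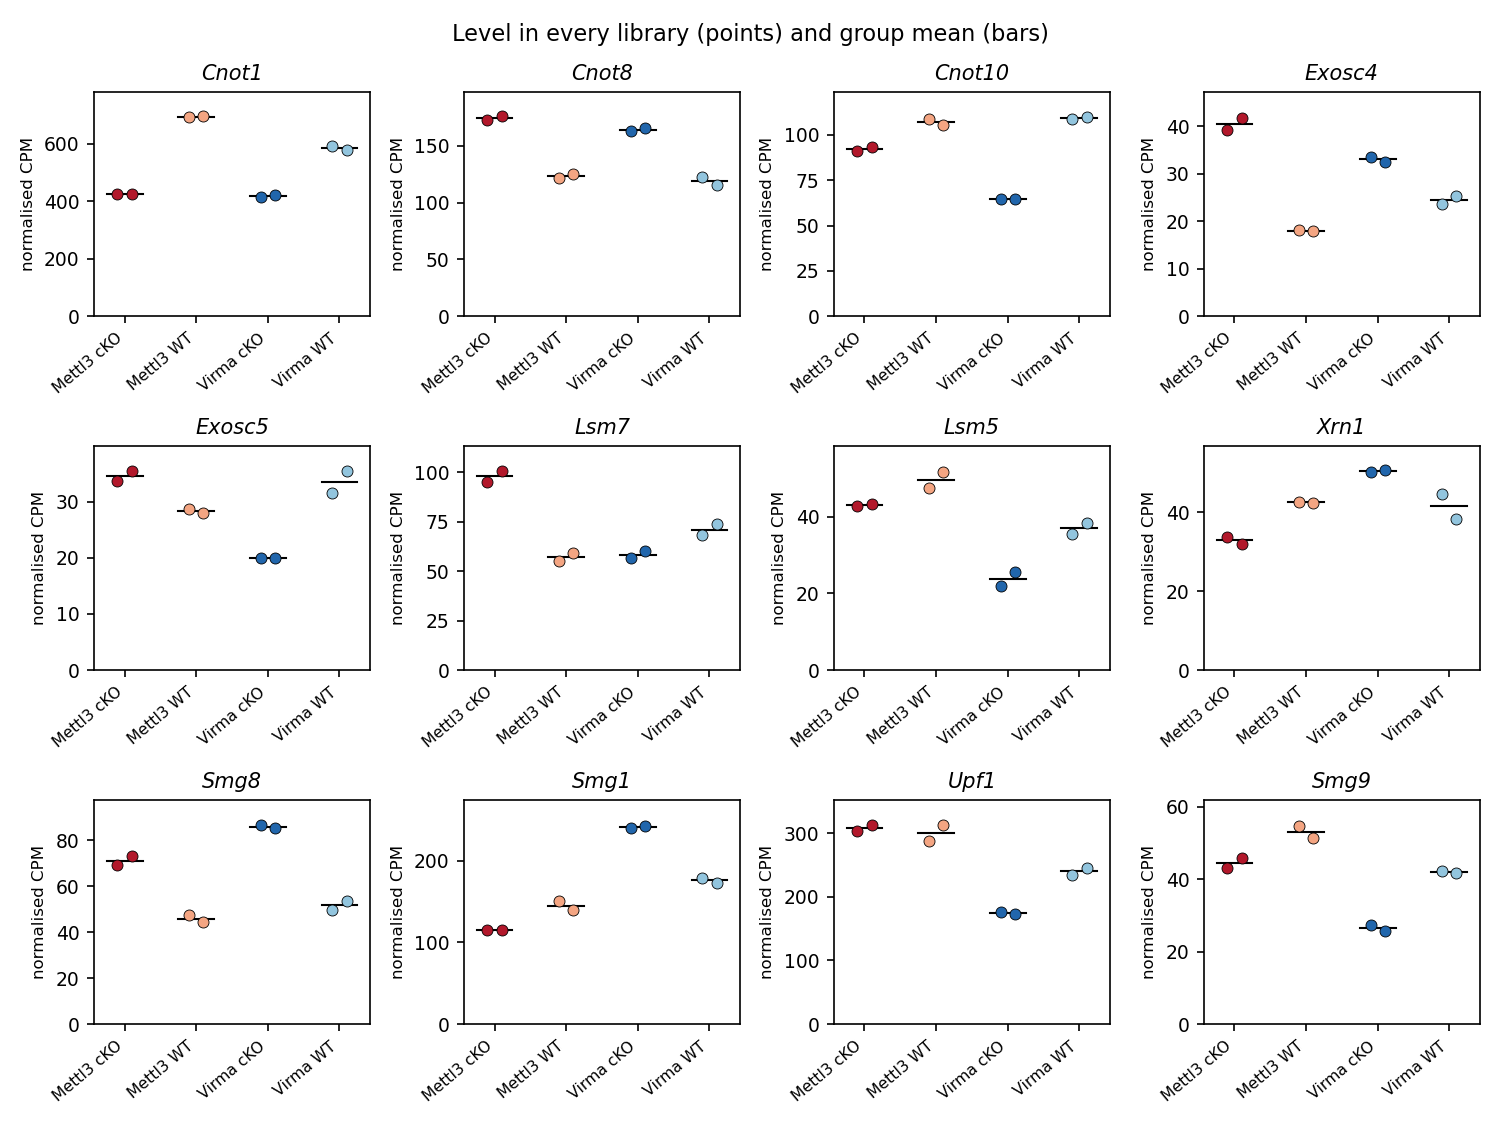
Normalised CPM (y axes, from 0) of 12 decay genes in every library (points) with the mean of both libraries (short horizontal bars), for Mettl3 cKO, Mettl3 WT, Virma cKO and Virma WT. Cnot1 libraries of both knockouts sit between 413.4 and 426.4 CPM, below all control libraries, and Exosc4 libraries of both knockouts sit above all control libraries.

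In the LSM ring 6 of 7 genes were lower and 0 higher in Virma cKO (median −0.37). Scaling by total count left 4 lower and 0 higher (median −0.24). In Mettl3 cKO 1 was higher and 1 lower, with a median near 0. Summed levels of the 7 genes were 386.8 and 392.6 CPM in Virma cKO, against 487.8 and 489.1 CPM in Virma WT. The sums were 634.7 and 629.2 CPM in Mettl3 cKO, against 615.8 and 602.2 CPM in Mettl3 WT. All 7 form the cytoplasmic ring that caps the 3′ end of deadenylated RNA, and Lsm2 to Lsm7, the 6 lower genes, also belong to the nuclear ring on the U6 spliceosomal RNA.

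Lsm7 had the largest split of the 46 genes between the lines. It had 95.05 and 100.6 CPM in Mettl3 cKO, against 55.31 and 59.31 CPM in Mettl3 WT, a rise of 0.77 ± 0.06, and 56.71 and 59.97 CPM in Virma cKO, against 68.07 and 73.87 CPM in Virma WT, a fall of −0.28 ± 0.07. No libraries overlapped in either line, and the effects differed by −1.05 ± 0.09 (edgeR, Benjamini-Hochberg adjusted p = 2.42e-09). The rise was 0.47 once corrected for length and GC and 0.46 against the Virma WT libraries, and the Virma fall was lost with scaling by total count (−0.16).

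Lsm5 had 22.08 and 25.52 CPM in Virma cKO, against 35.61 and 38.52 CPM in Virma WT (−0.64 ± 0.10), and 42.86 and 43.25 CPM in Mettl3 cKO, against 47.52 and 51.71 CPM in Mettl3 WT (−0.21 ± 0.07). It was lower without overlap in both lines. The Mettl3 call was lost with DESeq2 (−0.21), without replicate 1 or 2 of Mettl3 cKO (−0.20 and −0.21) and without replicate 2 of Mettl3 WT (−0.14), and it turned to 0.21 against the Virma WT libraries. Lsm6 had 61.96 and 60.51 CPM in Virma cKO, against 86.02 and 78.4 CPM in Virma WT (−0.43 ± 0.07), and 96.37 and 94.06 CPM in Mettl3 cKO, against 108.5 and 96.42 CPM in Mettl3 WT (−0.11 ± 0.06, not called). The Mettl3 cKO libraries of Lsm6 lay just under the lower control, and the gene passed there without replicate 2 of Mettl3 WT (−0.19).

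Lsm2, Lsm3 and Lsm4 were lower in Virma cKO by −0.38 ± 0.07, −0.22 ± 0.06 and −0.37 ± 0.05 and were not called in Mettl3 cKO (0.01 ± 0.05, −0.09 ± 0.04 and 0.00 ± 0.04). The call of Lsm3 in Virma cKO was lost with scaling by total count (−0.10). In Mettl3 cKO, Lsm3 passed without replicate 2 of Mettl3 WT (−0.12), and Lsm4, which has a short transcript, turned from uncalled to −0.50 once corrected for length and GC. Lsm1, the subunit found only in the cytoplasmic ring, was the one member not called in either line (0.19 ± 0.08 and 0.12 ± 0.11). It stood close to the threshold in Mettl3 cKO (edgeR, Benjamini-Hochberg adjusted p = 0.0501) and passed without replicate 1 of Mettl3 WT (0.28) or replicate 1 or 2 of Virma cKO (0.19 each). Lsm4 had the highest level per kb of exon of all 46 genes, 146 CPM per kb in Mettl3 cKO, 147 in Mettl3 WT, 80.1 in Virma cKO and 103 in Virma WT. This rank rests on the length used, which joins all annotated exons of a gene. For Lsm4 it was 1038 bases, against 925 in the coding transcript. For Lsm3 it was 2753 against 743 bases, and for Lsm7 1601 against 468.

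The exosome split in Mettl3 cKO, with 5 of 10 genes higher and 4 lower (median 0.13), and was mostly lower in Virma cKO, with 7 lower and 1 higher (median −0.19). With scaling by total count the Virma counts were 3 lower and 3 higher. The Mettl3 counts were 3 higher and 2 lower without replicate 2 of Mettl3 cKO, and 2 were lower without replicate 1 of Mettl3 WT. Summed levels were 657.2 and 665.9 CPM in Virma cKO, against 759.6 and 771.2 CPM in Virma WT, and 695.4 and 695.9 CPM in Mettl3 cKO, against 673.1 and 675.2 CPM in Mettl3 WT. Exosc4, a barrel subunit, had the largest rise of the set in Mettl3 cKO. It had 39.14 and 41.74 CPM there, against 18.04 and 17.84 CPM in Mettl3 WT, a change of 1.17 ± 0.08 (edgeR, Benjamini-Hochberg adjusted p = 2.2e-11). In Virma cKO it had 33.55 and 32.57 CPM, against 23.68 and 25.22 CPM in Virma WT (0.43 ± 0.10). All knockout libraries lay above all control libraries, and against the Virma WT libraries the Mettl3 rise was 0.72.

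Exosc3, a cap subunit that contacts RNA at the entry of the barrel, had 57.71 and 59.7 CPM in Mettl3 cKO, against 36.2 and 39.44 CPM in Mettl3 WT (0.63 ± 0.06), and 49.66 and 50.85 CPM in Virma cKO, against 47.6 and 47.58 CPM in Virma WT (0.08 ± 0.08, not called). The rise in Mettl3 cKO was without overlap and measured 0.30 against the Virma WT libraries. Exosc5, another barrel subunit, had 33.67 and 35.44 CPM in Mettl3 cKO, against 28.71 and 27.89 CPM in Mettl3 WT (0.29 ± 0.08), and 19.91 and 19.99 CPM in Virma cKO, against 31.56 and 35.48 CPM in Virma WT (−0.75 ± 0.11). It moved in opposite directions without overlap, and the effects differed by −1.04 ± 0.13 (edgeR, Benjamini-Hochberg adjusted p = 1.07e-06). Its Mettl3 rise was lost with DESeq2 (0.28), without replicate 2 of Mettl3 cKO (0.25) and against the Virma WT libraries (0.04). Exosc7 had 35.05 and 36.96 CPM in Mettl3 cKO, against 41.83 and 39.32 CPM in Mettl3 WT (−0.17 ± 0.07), and 30.47 and 30.38 CPM in Virma cKO, against 41.94 and 40.6 CPM in Virma WT (−0.44 ± 0.09). It was lower without overlap in both, but the Mettl3 call held in 8 of 20 alternatives and was lost without replicate 1 or 2 of Mettl3 cKO (−0.13 and −0.21), replicate 1 of Mettl3 WT (−0.13) and replicate 1 or 2 of Virma WT (−0.17 each).

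Of the catalytic subunits, Exosc10, the nuclear 3′ exonuclease, was lower in Mettl3 cKO (−0.23 ± 0.04) and Virma cKO (−0.41 ± 0.05). Dis3, the main nuclease of the complex, was lower in both as well (−0.30 ± 0.04 and −0.18 ± 0.05), and its Virma call was lost with scaling by total count (−0.06). Exosc9 was higher in Mettl3 cKO (0.21 ± 0.05) and lower in Virma cKO (−0.24 ± 0.06), the first at 0.00 against the Virma WT libraries and the second lost with scaling by total count (−0.11). Exosc2 had the same pattern with smaller values (0.15 ± 0.05 and −0.16 ± 0.06), which were lost without replicate 2 of Mettl3 cKO (0.15) and without replicate 2 of Virma WT (−0.12). Once corrected for length and GC the Mettl3 value of Exosc2 was 0.00, and with scaling by total count its Virma value was −0.04. Exosc8 was lower in both (−0.20 ± 0.06 and −0.20 ± 0.08). The Mettl3 call of Exosc8 was lost without replicate 2 of Mettl3 cKO (−0.12) or replicate 1 of Mettl3 WT (−0.13). Its Virma call held in 10 of 19 alternatives and was lost without replicate 1 or 2 of Mettl3 cKO (−0.20 each), replicate 1 of Virma cKO (−0.18) and replicate 1 or 2 of Virma WT (−0.18 and −0.21). Exosc1 was not called in either line (0.11 ± 0.09 and 0.11 ± 0.10).

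**Figure D3:**
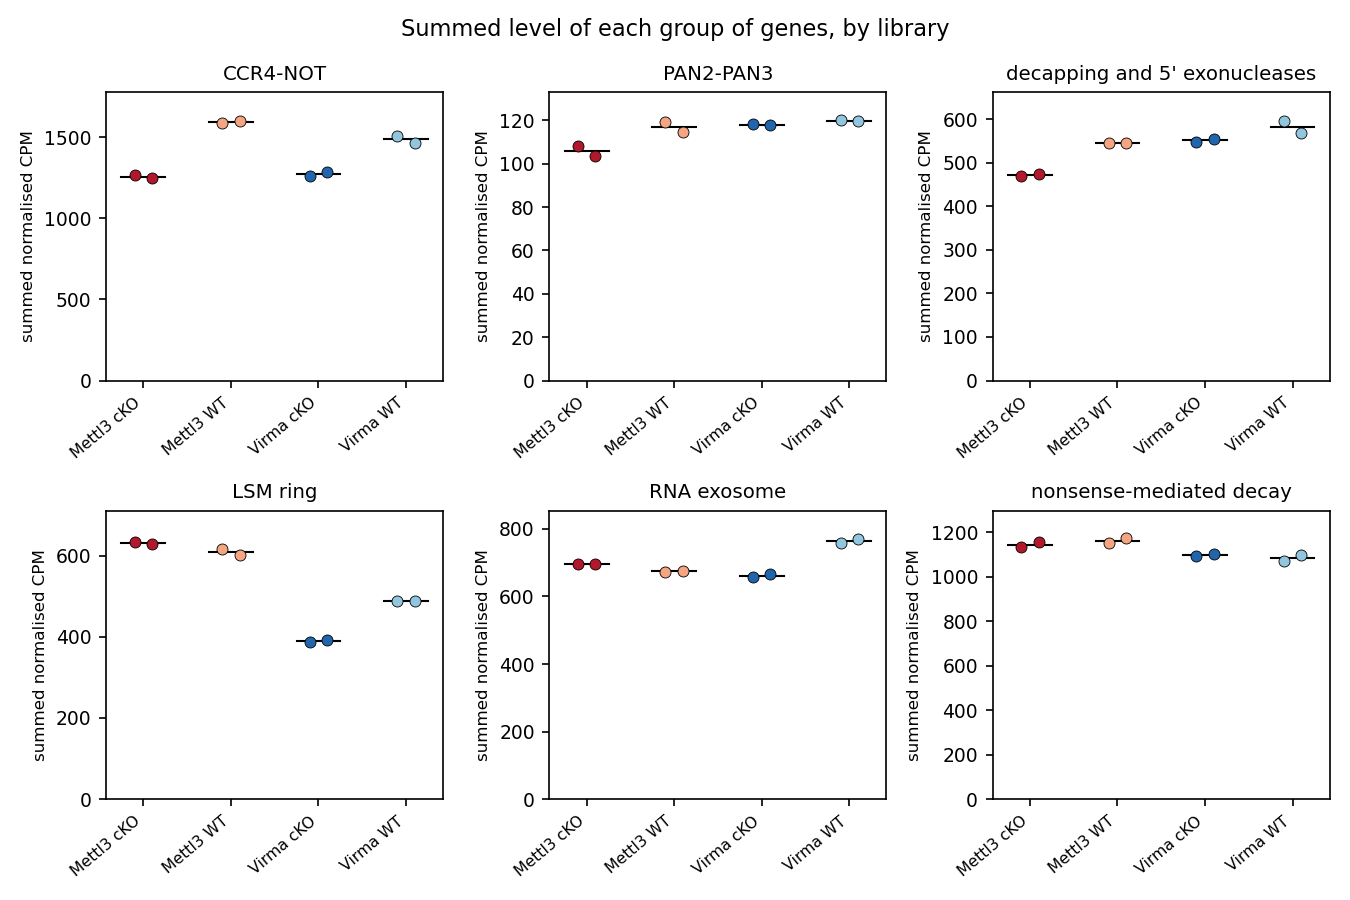
Summed normalised CPM (y axes, from 0) of each of the 6 groups of decay genes in every library (points), with the mean of both libraries (short horizontal bars). CCR4-NOT sums are lower in both knockouts (1267 and 1247 CPM in Mettl3 cKO against 1585 and 1599 CPM in Mettl3 WT), and LSM sums are lower in Virma cKO.

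The plot of summed levels shows CCR4-NOT at 1258 and 1283 CPM in Virma cKO, against 1508 and 1466 CPM in Virma WT, with most of that difference in Cnot1. Nonsense-mediated decay genes had sums of 1132 and 1155 CPM in Mettl3 cKO, against 1151 and 1175 CPM in Mettl3 WT, and of 1095 and 1101 CPM in Virma cKO, against 1073 and 1100 CPM in Virma WT. These ranges overlapped in both lines, while single genes of the group moved strongly.

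In nonsense-mediated decay 2 of 9 genes were higher and 4 lower in Mettl3 cKO (median −0.02), and 4 higher and 3 lower in Virma cKO (median 0.05). Smg1, Smg8 and Smg9 form the kinase complex that phosphorylates the helicase UPF1, and they moved apart. Smg8, a regulatory subunit, had 69.14 and 72.95 CPM in Mettl3 cKO, against 47.22 and 44.41 CPM in Mettl3 WT (0.63 ± 0.06), and 86.46 and 85.12 CPM in Virma cKO, against 49.81 and 53.3 CPM in Virma WT (0.73 ± 0.07). It rose without overlap in both lines (edgeR, Benjamini-Hochberg adjusted p = 4.32e-09 and 3.8e-09), and the difference of effects was not called (0.10 ± 0.09). Smg9, its partner, had 43.16 and 45.97 CPM in Mettl3 cKO, against 54.83 and 51.35 CPM in Mettl3 WT (−0.25 ± 0.07), and 27.51 and 25.76 CPM in Virma cKO, against 42.24 and 41.8 CPM in Virma WT (−0.66 ± 0.09). It fell without overlap in both. Without replicate 1 of Mettl3 cKO the Mettl3 call of Smg9 was lost (−0.21), and against the Virma WT libraries the value was 0.08. Smg1, the kinase itself, had 115.7 and 114.8 CPM in Mettl3 cKO, against 150.6 and 139.7 CPM in Mettl3 WT (−0.33 ± 0.04), and 240.5 and 243.1 CPM in Virma cKO, against 179.5 and 173.1 CPM in Virma WT (0.45 ± 0.05). It moved in opposite directions, and the effects differed by 0.79 ± 0.06 (edgeR, Benjamini-Hochberg adjusted p = 6.61e-10). Once corrected for length and GC, the Mettl3 value of Smg1, which has the longest exons of the set, was −0.06 and not called, the Virma value was 0.21 and the difference 0.27.

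Upf1, the helicase at the centre of the pathway, had 176.3 and 172.8 CPM in Virma cKO, against 233.8 and 245.6 CPM in Virma WT, a fall of −0.46 ± 0.05 without overlap. In Mettl3 cKO it had 302.8 and 313 CPM, against 288.1 and 312.3 CPM in Mettl3 WT (0.04 ± 0.04, not called, although 0.10 and called without replicate 2 of Mettl3 WT, and −0.16 and called once corrected for length and GC). Upf2, which bridges UPF1 to the UPF3 proteins, had 84.53 and 81.78 CPM in Mettl3 cKO, against 107.8 and 102 CPM in Mettl3 WT (−0.34 ± 0.05), and 109.3 and 111.2 CPM in Virma cKO, against 96.52 and 96.77 CPM in Virma WT (0.19 ± 0.06). It moved in opposite directions without overlap, and the Virma rise was lost with DESeq2 (0.18) and once so corrected (0.11). Of the paralogs that link UPF2 to exon junctions, Upf3a had 123.3 and 132.3 CPM in Mettl3 cKO, against 101.9 and 108.2 CPM in Mettl3 WT (0.28 ± 0.05), and 87.18 and 86.15 CPM in Virma cKO, against 81.73 and 85.14 CPM in Virma WT (0.05 ± 0.06). Upf3b had 102 and 99.32 CPM in Mettl3 cKO, against 109.4 and 124.8 CPM in Mettl3 WT (−0.22 ± 0.05), and 108.2 and 112.9 CPM in Virma cKO, against 114.4 and 118.2 CPM in Virma WT (−0.07 ± 0.06). The 2 paralogs thus moved apart in Mettl3 cKO, and Upf3b was reduced to −0.12 without replicate 2 of Mettl3 WT and lost its call once so corrected (−0.09). Smg6, the endonuclease that cuts near the stop codon, was higher in Virma cKO (0.24 ± 0.06) and Smg5, an adaptor of phosphorylated UPF1, lower (−0.25 ± 0.05), and neither was called in Mettl3 cKO (−0.02 ± 0.05 and 0.02 ± 0.04).

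Set side by side, 3 genes were higher in both knockouts (Cnot8, Exosc4, Smg8) and 13 lower in both (Cnot1, Cnot3, Cnot9, Cnot10, Pan2, Edc4, Xrn2, Lsm5, Exosc7, Exosc8, Exosc10, Dis3, Smg9). Another 5 were lower in Mettl3 cKO and higher in Virma cKO (Cnot4, Cnot6l, Xrn1, Upf2, Smg1), and 4 the reverse (Lsm7, Exosc2, Exosc5, Exosc9). Over all genes tested, 13.7% were higher in both, 14.2% lower in both, 3.13% lower in Mettl3 cKO and higher in Virma cKO, and 3.63% the reverse. Of those called the same way in both, 7 kept their calls in both lines under every alternative tried (Cnot1, Cnot3, Cnot8, Cnot10, Exosc4, Exosc10, Smg8). None of the genes called opposite ways kept both calls under every alternative. Among them, the call of the difference of effects held under every alternative for Upf2, Smg1, Lsm7, Exosc5 and Exosc9. Across the 46 genes the 2 sets of fold changes, which share no libraries, had a Pearson r of 0.3 and a Spearman rho of 0.13, against 0.5 and 0.48 across all 14229 genes. These are descriptions across genes, which are not independent.

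**Figure D4:**
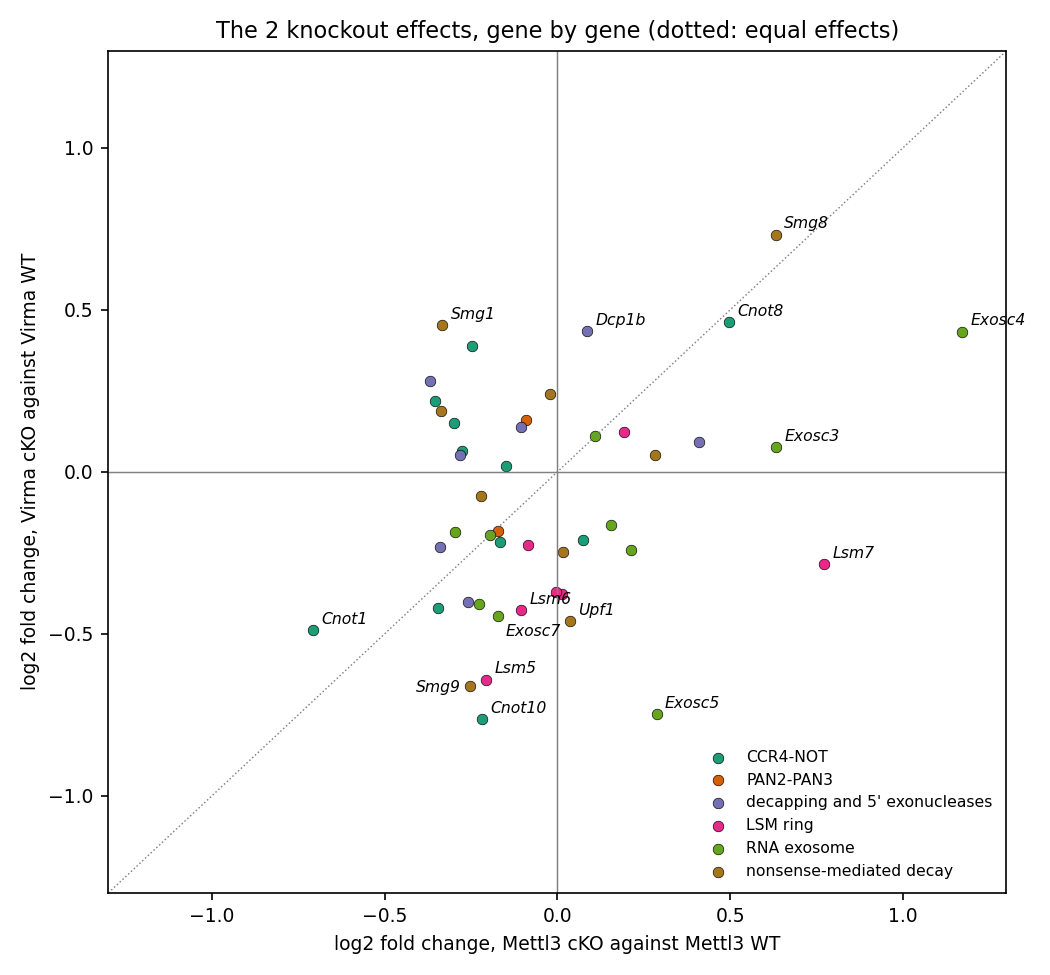
Log2 fold change in Virma cKO against Virma WT (y axis) and in Mettl3 cKO against Mettl3 WT (x axis) for the 46 decay genes, coloured by group; the dotted line marks equal effects. Smg8 and Cnot8 lie near the line at the upper right, Cnot1 at the lower left, and Lsm7, Exosc5 and Smg1 lie far from it.

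The test of the difference (Virma effect minus Mettl3 effect) called 29 of the 46 genes, 11 with a higher and 18 with a lower effect in the Virma line, where 39.1% of all genes tested were called, 17.9% higher and 21.2% lower. In the plot of both effects, the called LSM genes (5 of 7 lower in the difference, 0 higher) and the called exosome genes (6 of 10 lower, 0 higher) lie below the line of equal effects. CCR4-NOT genes had 5 higher and 2 lower, decapping factors 3 higher and 1 lower, and nonsense-mediated decay genes 3 higher and 4 lower. Once corrected for length and GC, 3 genes instead of 11 had a higher effect in the Virma line, and Cnot1 turned from 0.22 ± 0.04 to −0.20.

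The 2 control groups differed from each other in these genes too. In Virma WT against Mettl3 WT, 18 of the 46 were higher and 16 lower, where 47.6% of all genes tested were called, 25.4% higher and 22.2% lower. LSM genes were lower in 5 of 7 and higher in 1, with Lsm3 at −0.58 ± 0.04, Lsm4 at −0.51 ± 0.04 and Lsm7 at 0.31 ± 0.06. Exosome genes were higher in 7 of 10 and lower in 0 (1 without replicate 2 of Mettl3 WT), led by Exosc4 (0.45 ± 0.09) and Dis3 (0.37 ± 0.04). Dcp2 was higher by 0.50 ± 0.05 and Cnot4 lower by −0.41 ± 0.06. Measured against Virma WT in place of Mettl3 WT, Mettl3 cKO had 6 of 7 LSM genes higher and 0 lower (median 0.46). Exosome genes then had 2 higher and 3 lower (median −0.02). Against Mettl3 WT, LSM genes had 1 higher and 1 lower (median −0.005), and exosome genes 5 higher and 4 lower (median 0.13). The counts of both groups thus depended on the control, and Virma WT as control brings in the difference between the lines. Line and preparation cannot be told apart here, because the labels name 2 library kits without saying which library each was used for.

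Paralogs that fill the same place in a complex changed their shares in some pairs. Shares were taken from CPM per kb of exon, with all annotated exons of a gene joined. This length can far exceed that of the coding transcript. It was 5865 against 2057 bases for Upf3a and 3999 against 2344 for Upf3b. For Xrn1 it was 18585 against 5499 bases, and for Xrn2 3981 against 3434. The shares can be compared between libraries but do not tell which paralog is more abundant. Cnot7 made up 14.6 and 14.2% of the Cnot7 and Cnot8 pair in Mettl3 cKO, against 23.5 and 21.9% in Mettl3 WT, and 16.8 and 16.9% in Virma cKO, against 19.8 and 20.3% in Virma WT. Its share was lower in both knockouts without overlap. Upf3a made up 45.2 and 47.6% of the Upf3a and Upf3b pair in Mettl3 cKO, against 38.8 and 37.1% in Mettl3 WT, and 35.5 and 34.2% in Virma cKO, against 32.8 and 32.9% in Virma WT. Its share was higher in both knockouts, with the larger step in the Mettl3 line. Cnot6l held 19.8 and 20.1% of its pair in Mettl3 cKO and 20 and 19.2% in Mettl3 WT, which overlap, and 20.5 and 19.5% in Virma cKO and 15.7 and 17.6% in Virma WT, which do not. Xrn1 held 4.45 to 6.52% of its pair in every library, and Dcp1b 11.1 to 21.1%, with overlapping groups in the Mettl3 line for both. In the Virma line neither overlapped, with Xrn1 at 6.49 and 6.52% in Virma cKO against 4.84 and 4.45% in Virma WT, and Dcp1b at 16 and 15.2% in Virma cKO against 11.1 and 13.9% in Virma WT.

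**Figure D5:**
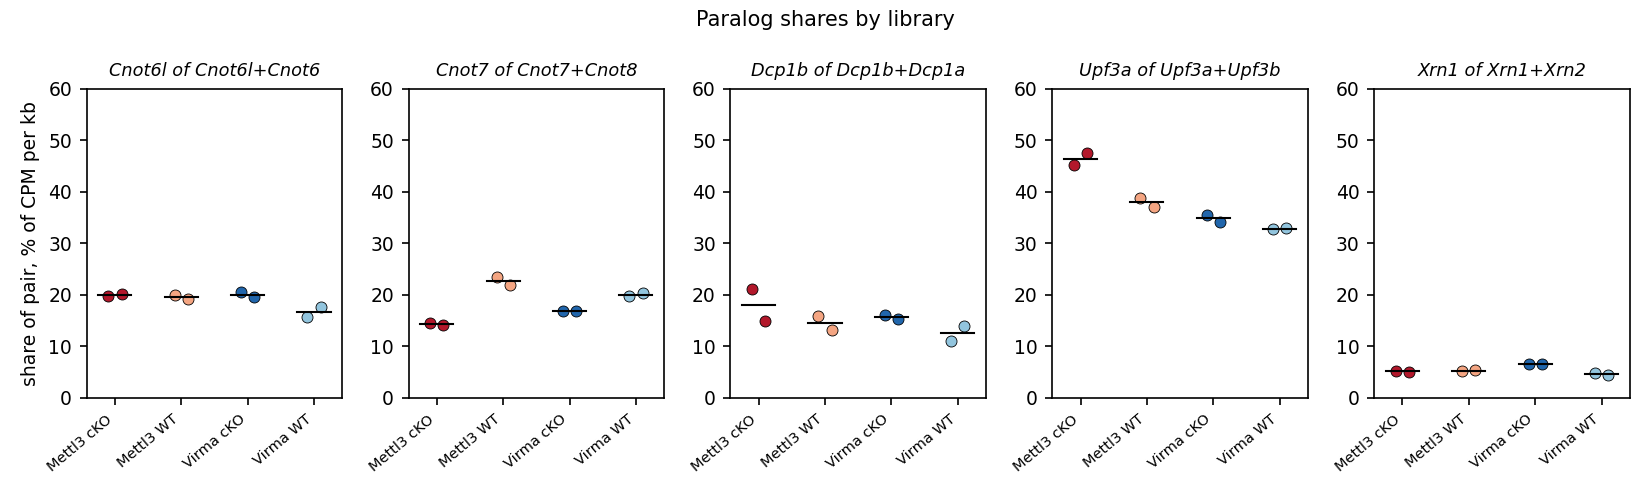
Share of 1 paralog in the pair, in percent of CPM per kb of exon (y axis, from 0), in every library (points) with the mean of both libraries (short horizontal bars), for 5 paralog pairs. The share of Cnot7 is lower in both knockouts than in their controls, and the share of Upf3a is higher.

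Other genes of the same pathways were read from lists chosen for each step. A gene named for a single knockout was among the largest called changes there and may have moved in the other too. The counts of every list are to be read beside the shares over all genes tested. Those were 27.1% higher and 28% lower in Mettl3 cKO, and 26.2% higher and 26.1% lower in Virma cKO. Of 15 genes of deadenylation and poly(A) binding, 6 were higher and 5 lower in Mettl3 cKO, and 7 higher and 3 lower in Virma cKO. Noct, of the same nuclease family as CNOT6, had 91.02 and 90.85 CPM in Mettl3 cKO, against 34.04 and 37.35 CPM in Mettl3 WT, and 163.7 and 160.5 CPM in Virma cKO, against 60.37 and 60.58 CPM in Virma WT. It rose without overlap in both lines, by 1.35 ± 0.06 and 1.42 ± 0.06. Toe1, a nuclear deadenylase (0.97 ± 0.06 and 0.87 ± 0.07), and Pde12, a mitochondrial one (0.73 ± 0.07 and 0.69 ± 0.07), rose in both as well. Of the antiproliferative proteins that recruit CCR4-NOT, Btg1 was lower in Mettl3 cKO (−0.51 ± 0.07) and Btg2 higher in both (0.19 ± 0.06 and 0.76 ± 0.07).

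Of 16 decapping cofactors, 9 were lower and 1 higher in Mettl3 cKO, and 8 lower and 2 higher in Virma cKO. Ddx6, the helicase that joins deadenylation to decapping, had 113 and 110.8 CPM in Mettl3 cKO, against 188.7 and 185.8 CPM in Mettl3 WT (−0.74 ± 0.04), and 173.9 and 174.6 CPM in Virma cKO, against 208.1 and 196.8 CPM in Virma WT (−0.22 ± 0.05). Lsm8, the subunit of the nuclear ring, fell by 0.59 ± 0.07 in Mettl3 cKO, and Pnrc2, a decapping coactivator, by 0.51 ± 0.06. Eif4e2, a cap-binding repressor of translation, fell by 0.77 ± 0.05 in Virma cKO and its partner Gigyf2 by 0.37 ± 0.04, while Pnrc1 rose by 0.45 ± 0.06. Dxo, which removes incomplete caps, rose in both (0.65 ± 0.09 and 0.63 ± 0.11). Mean levels in Virma cKO against Virma WT were also lower for Lsm8 (22 against 27.3 CPM) and Pnrc2 (53 against 59.8 CPM). Means in Mettl3 cKO against Mettl3 WT were also lower for Gigyf2 (165 against 217 CPM) and Eif4e2 (188 against 205 CPM). Pnrc1 was lower there (83 against 89.4 CPM), opposite to its Virma rise.

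Of 20 exosome cofactors and relatives tested, 4 were higher and 11 lower in Mettl3 cKO, and 6 higher and 7 lower in Virma cKO. Pelo, which rescues stalled ribosomes, had 55.85 and 57.95 CPM in Mettl3 cKO, against 20.02 and 18.97 CPM in Mettl3 WT (1.54 ± 0.07), and 62.14 and 59.91 CPM in Virma cKO, against 27.8 and 27.72 CPM in Virma WT (1.13 ± 0.08). Zfc3h1, which brings polyadenylated nuclear RNA to the exosome, fell by 0.90 ± 0.06 in Mettl3 cKO. Of the SKI complex, which feeds RNA to the cytoplasmic exosome, Ttc37 fell by 0.54 ± 0.06 in Mettl3 cKO and Skiv2l by 0.69 ± 0.09 in Virma cKO. Dis3l, a cytoplasmic relative of Dis3, rose by 0.51 ± 0.08 in Mettl3 cKO. In Virma cKO the nuclear cofactor Mphosph6 fell by 0.53 ± 0.07 and the uridylyl transferase Tut4 rose by 0.51 ± 0.06. Mean levels in Virma cKO against Virma WT were also lower for Zfc3h1 (60 against 74.5 CPM) and higher for Dis3l (41.6 against 29.7 CPM). Ttc37 stood at 46.7 against 46 CPM there. Means in Mettl3 cKO against Mettl3 WT were also lower for Skiv2l (38.9 against 48.9 CPM) and Mphosph6 (80.7 against 99.6 CPM). Tut4 was lower there (65.1 against 73.8 CPM), opposite to its Virma rise.

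Of 16 partners of nonsense-mediated decay, 1 was higher and 5 lower in Mettl3 cKO, and 2 higher and 11 lower in Virma cKO (median −0.29). In Mettl3 cKO 10 of the 16 were not called, where 55.1% of all genes tested were called. The lower ones in Virma cKO included the exon junction genes Eif4a3 (−0.49 ± 0.04) and Rbm8a (−0.44 ± 0.05), while Magohb rose by 0.51 ± 0.17. Ruvbl2, an ATPase that acts with the SMG1 kinase, fell by 0.50 ± 0.05. In Mettl3 cKO Nbas fell by 0.59 ± 0.07, the release factor Etf1 by 0.21 ± 0.03, and the exon junction gene Magoh rose by 0.22 ± 0.04. Among 25 sequence-specific and microRNA adaptors, 5 were higher and 13 lower in Mettl3 cKO, and 9 higher and 5 lower in Virma cKO. Ythdf2, the m6A reader that recruits CCR4-NOT, had 166.8 and 159.6 CPM in Mettl3 cKO, against 84.8 and 91.33 CPM in Mettl3 WT (0.89 ± 0.04), and 277.8 and 287.9 CPM in Virma cKO, against 128.4 and 130.4 CPM in Virma WT (1.13 ± 0.05). Both rises were without overlap. Samd4, an RNA-binding repressor, rose in both at low level (0.81 ± 0.27 and 1.398 ± 0.249). Nanos3, a germ cell repressor at 2.044 and 2.298 CPM in Mettl3 cKO against 0.2996 and 0.8379 CPM in Mettl3 WT, rose by 1.92 ± 0.41 in Mettl3 cKO, where the Pumilio protein gene Pum2 fell by 0.69 ± 0.05. In Virma cKO Zfp36l3 fell by 0.76 ± 0.10 and Tnrc6b, a scaffold of microRNA silencing, rose by 0.66 ± 0.08.

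Of 7 RNAs known as targets of nonsense-mediated decay, 2 were higher, 1 lower and 4 not called in each knockout. Gas5, Snhg1, Snhg5, Snhg8 and Snhg12, also on the planned list of targets, have no values here. Over all genes tested, 55.1% were called in Mettl3 cKO and 52.3% in Virma cKO. Atf4 rose in both (0.36 ± 0.03 and 0.41 ± 0.03), Gadd45a rose in Mettl3 cKO (0.20 ± 0.06) and Ddit3 in Virma cKO (0.76 ± 0.10). Upp1 fell by 0.86 ± 0.04 in Mettl3 cKO and by 2.61 ± 0.06 in Virma cKO, with 42.48 and 42.1 CPM in Virma cKO against 255 and 259 CPM in Virma WT.

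Gene length moved with the calls. The 23 decay genes lower in Mettl3 cKO had a median exon length of 6013 bases and the 10 higher ones 3053, against 5777 and 3637.5 over all genes with the same calls. In Virma cKO the 10 higher decay genes had a median of 8577.5 bases and the 24 lower ones 4204.5, against 4983 and 4210 over all genes. The sources used here do not state the strand setting of the counts, so reads of overlapping genes on opposite strands cannot be told apart. Exosc4 shares 19.79% of its exon length with Oplah, which fell by 0.84 ± 0.09 in Mettl3 cKO and by 1.06 ± 0.14 in Virma cKO, opposite to the rise of Exosc4. Edc3 shares 22.12% with Clk3, which fell by 0.27 ± 0.05 in Mettl3 cKO, opposite to the rise of Edc3, and by 0.33 ± 0.06 in Virma cKO, where Edc3 was not called. Exosc9 shares 10.83% with Ccna2, which fell by 0.50 ± 0.03 in Mettl3 cKO, opposite to Exosc9, and by 0.61 ± 0.05 in Virma cKO, in the same direction as Exosc9. The part of these overlaps in the results was not tested. The other members with a partner on the opposite strand share at most 12.4% of their exon length.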

How the data were processed

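Total RNA was extracted with TRIzol and sequenced as 8 libraries, 2 per group, from embryonic stem cells of the mouse kept in a medium for primitive endoderm. The authors deposited whole-number counts per gene symbol. Per the submitters' processing notes, the build was mm39 and the tools were STAR 2.7.11b, Subread, Trim Galore, FastQC 0.12.1 and DESeq2, with no roles stated. The sources used here do not give the annotation, the strand or multimapping settings, or which library was made with which of the 2 kits named in the labels (SMARTer stranded and VAHTS universal).

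The 46 genes and all gene lists were chosen with earlier results of these data known. Genes were filtered with filterByExpr and tested with edgeR 4.0.16 in R 4.3.3 (TMM scaling, robust quasi-likelihood fit, Benjamini-Hochberg adjustment over all 14229 genes tested). All groups entered 1 fit. The Virma cKO libraries entered as their rounded mean, since they differed by less than sampling noise. The lowest count of any member in any library was 91. Library totals were 15568628 to 17306227 counts. Values in every library are printed for the 2 called genes of each complex with the largest change in each knockout comparison, the 1 with the largest difference of effects and both genes of 5 paralog pairs, and, chosen after its values were seen, for Upf1. Of the other pathway lists, up to 4 called genes with the largest change per comparison are named.

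Alternatives were DESeq2 1.42.0, other scalings and filters, 8 separate libraries, a replicate block, each line alone, correction for exon length and GC content (a loess trend over all genes, subtracted), each library left out, Virma WT as control of Mettl3 cKO, and a threshold of 0.01. Replicate numbers did not pair the samples. Lengths, GC content and motifs came from GENCODE M21 (GRCm38), matched by symbol, as did exon overlaps, which were taken within that annotation. It is of another build than the authors', and no coordinates are printed. On simulated data the fit recovered 72% of 50 genes changed 1.3 times in either knockout comparison. At 2 times it recovered 98% in the Mettl3 and 92% in the Virma comparison. False calls were 2.19% and 0% of calls. Changes below 1.3 times were not simulated. Of 14229 genes only 50 were changed at each size, as many up as down. The data had 55.1% of genes called in the Mettl3 and 52.3% in the Virma comparison. The simulated recovery and false calls therefore need not hold for them. Simulated libraries were all drawn independently, while the Virma cKO libraries differed by less than sampling noise.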

Additional observations from a re-analysis of the deposited data

Results flagged for a closer look

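The effects of the 2 knockouts differed for 29 of the 46 decay genes in the test of the difference itself (Virma effect minus Mettl3 effect, log2 scale ± SE, edgeR with Benjamini-Hochberg adjustment over all genes tested), where 39.1% of all genes were called. Each value below is such a difference. Correction for length and GC takes out the smooth trend of fold change with exon length and GC content.

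Among CCR4-NOT genes, the effect in the Virma line was higher for Cnot4 (0.58 ± 0.10), Cnot6 (0.34 ± 0.10), Cnot6l (0.64 ± 0.15) and Cnot7 (0.45 ± 0.08), which were lower in Mettl3 cKO. Cnot1, lower in both knockouts, differed by 0.22 ± 0.04. Cnot10 (−0.54 ± 0.07) and Cnot11 (−0.29 ± 0.10) had the lower effect in the Virma line. Among decapping factors and exonucleases, Dcp1a (0.33 ± 0.10), Dcp2 (0.24 ± 0.07) and Xrn1 (0.65 ± 0.12) had the higher effect there and Edc3 (−0.32 ± 0.11) the lower.

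The called LSM genes all had the lower effect in the Virma line: Lsm2 (−0.39 ± 0.09), Lsm4 (−0.37 ± 0.07), Lsm5 (−0.44 ± 0.12), Lsm6 (−0.32 ± 0.09) and Lsm7 (−1.05 ± 0.09). So did the called exosome genes: Exosc2 (−0.32 ± 0.07), Exosc3 (−0.56 ± 0.10), Exosc4 (−0.74 ± 0.13), Exosc5 (−1.04 ± 0.13), Exosc9 (−0.45 ± 0.07) and Exosc10 (−0.18 ± 0.06). In nonsense-mediated decay, Upf2 (0.52 ± 0.07), Smg1 (0.79 ± 0.06) and Smg6 (0.26 ± 0.08) had the higher effect in the Virma line, while Upf1 (−0.50 ± 0.06), Upf3a (−0.23 ± 0.08), Smg5 (−0.26 ± 0.06) and Smg9 (−0.41 ± 0.11) had the lower.

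With that correction the test no longer called Cnot4 (0.19), Cnot6 (−0.01), Cnot6l (0.14), Cnot7 (0.09), Dcp2 (−0.09), Xrn1 (0.10), Lsm4 (0.05), Exosc2 (−0.17), Exosc10 (−0.05), Smg6 (0.18) or Smg9 (−0.17), and Cnot1 turned to −0.20.

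Single libraries decided 9 of these calls. Without replicate 1 of Mettl3 cKO the test no longer called Cnot11 (−0.27) or Dcp1a (0.27). Without replicate 2 of Mettl3 cKO it no longer called Cnot6 (0.33), Dcp2 (0.22), Edc3 (−0.26), Exosc10 (−0.16), Upf3a (−0.18) or Smg6 (0.21). Without replicate 1 of Mettl3 WT it no longer called Exosc10 (−0.15). Without replicate 1 of Virma cKO it no longer called Cnot11 (−0.23) or Exosc10 (−0.15). Without replicate 1 of Virma WT it no longer called Cnot11 (−0.29), Edc3 (−0.29), Lsm6 (−0.26) or Smg6 (0.22), and without replicate 2 Cnot6 (0.28), Cnot11 (−0.29), Dcp1a (0.28), Dcp2 (0.21), Exosc10 (−0.16) or Upf3a (−0.20).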

How the results depend on the processing

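The counts of decay genes called stayed within 1.5 times of the reported ones except as follows. In Virma cKO, scaling by total count gave 20 higher and 14 lower, DESeq2 5 higher and correction for length and GC 5 higher. For the difference of effects, DESeq2 gave 7 higher, that correction 3 higher, and that correction with a replicate block 5 higher. Over all genes, DESeq2 called 3593 differences of effects and 4493 genes between the controls. Leaving out each library gave 24 to 34 decay genes called in Mettl3 cKO, 27 to 37 in Virma cKO, 23 to 32 for the difference and 29 to 35 between the controls.

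Replicate numbers did not pair the libraries (correlations of −0.02 to 0.05), and the fit with a replicate block and 8 separate libraries called 36 decay genes in Mettl3 cKO, 37 in Virma cKO, 34 for the difference and 36 between the controls, against 35, 37, 33 and 36 with 8 separate libraries and no block.

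Directions turned for Mettl3 cKO, once corrected for length and GC, in Cnot6l (0.10), Dcp2 (0.11), Exosc2 (−0.004) and Upf1 (−0.16), and also, called only with a block added, in Pan3 (0.16) and Lsm2 (−0.12). Against Virma WT they turned in Cnot4 (0.051), Cnot11 (−0.17), Pan2 (0.005), Lsm3 (0.49), Lsm4 (0.50), Lsm5 (0.21), Lsm6 (0.21), Smg6 (0.23) and Smg9 (0.084). For the difference of effects, so corrected, they turned in Cnot1 (−0.203), Cnot6 (−0.011), Dcp2 (−0.088), Lsm4 (0.046) and Dis3 (−0.191), and with a block added these were −0.201, −0.010, −0.087, 0.054 and −0.189. The cause was not tested. With 2 libraries per group and 1 counted sample in Virma cKO, small changes rest on few libraries, and Dcp1b, at 7.2 CPM, has the least precise values.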
